A study of Mus musculus with 10 samples.

Results

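The transcripts of 38 genes that copy DNA or divide the cell were followed through sorted cells of mouse spleen and tumor. They were chosen by their known function, as 17 genes of DNA replication and 21 genes of mitosis, and are 38 of the 17603 genes to which the deposited values could be assigned. The study took cells labelled EPC, an abbreviation that the labels do not spell out, from wild-type female C3H/HeN mice carrying tumors grown from SCC7, a mouse squamous carcinoma line that the labels use for head and neck cancer. There were 3 libraries of spleen CD45- cells, 3 of spleen CD45+ cells and 4 of tumor CD45+ cells, CD45 being the surface phosphatase of white blood cells. Below, tumor cells means these sorted CD45+ cells from tumors, and the term does not name the carcinoma cells. All 3 groups came from tumor-bearing animals of 1 genotype, and no tumor-free mice were analysed here. Expression is in FPKM, fragments scaled to the length of the transcript and the size of the library, so levels can be set side by side between genes. Values are given in the order of the replicate numbers, and the labels do not say whether equal numbers link libraries of different groups.

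DNA is copied from origins that are licensed in G1, when Cdc6 and Cdt1 load the ring of Mcm2 to Mcm7. In S phase that ring becomes the moving helicase with Cdc45 and the GINS complex, Pcna clamps the polymerases to DNA, and ribonucleotide reductase and thymidylate synthase supply the building blocks. Cyclin E and the E2F factors drive the entry into S phase, whereas cyclin B with Cdk1, the Aurora and Polo kinases and the kinesins run mitosis. Replication genes are classical targets of E2F through letters near their start, and many mitotic genes are controlled through a CHR element, a short motif bound by the DREAM and MuvB complexes, beside CCAAT boxes. Red cell precursors divide rapidly while they fill with hemoglobin and then leave the cycle, and E2f2 is known for its part in that exit.

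The lists differed in the letters of their promoters, a feature that does not depend on expression values. Promoter windows of 250 bases before to 50 bases after a gene start were taken from RefSeq (GRCm38.p6). They covered 14 of the 17 replication and 18 of the 21 mitotic genes, with no entry used for Mcm4, Ccne2, Gins2, Ccna2, Aurkb and Tpx2. Mcm7, E2f2 and Prc1 had 2 windows each, and a gene was counted where any of its windows held the letters. The stretches below run from 160 bases before to 20 bases after the start, 5′ to 3′ on the strand of the gene, with E2F or CHR letters in capitals. Mcm5 (chr8:75109349-75109528), Mcm6 (chr1:128359686-128359865) and Cdc6 (chr11:98907991-98908170) show the E2F letters of replication genes. Cdk1 (chr10:69352893-69353072) carries both kinds, and Cdc20 (chr4:118437324-118437503), Ube2c (chr2:164769769-164769948) and Mki67 (chr7:135716360-135716539) show the CHR letters of mitotic genes.
Mcm5: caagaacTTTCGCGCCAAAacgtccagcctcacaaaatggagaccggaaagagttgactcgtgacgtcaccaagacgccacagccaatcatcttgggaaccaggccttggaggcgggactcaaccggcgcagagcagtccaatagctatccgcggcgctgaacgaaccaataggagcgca
Mcm6: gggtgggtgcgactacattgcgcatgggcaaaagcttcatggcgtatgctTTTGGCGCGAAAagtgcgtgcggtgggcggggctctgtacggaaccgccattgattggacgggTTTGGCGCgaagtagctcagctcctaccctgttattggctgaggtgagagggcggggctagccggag
Cdc6: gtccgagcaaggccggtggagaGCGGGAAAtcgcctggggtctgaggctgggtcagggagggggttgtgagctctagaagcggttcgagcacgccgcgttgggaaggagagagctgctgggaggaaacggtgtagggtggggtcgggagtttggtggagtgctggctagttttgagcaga
Cdk1: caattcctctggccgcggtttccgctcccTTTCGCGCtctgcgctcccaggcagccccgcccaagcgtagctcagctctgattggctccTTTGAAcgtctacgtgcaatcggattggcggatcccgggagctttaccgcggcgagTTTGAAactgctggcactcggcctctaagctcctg
Cdc20: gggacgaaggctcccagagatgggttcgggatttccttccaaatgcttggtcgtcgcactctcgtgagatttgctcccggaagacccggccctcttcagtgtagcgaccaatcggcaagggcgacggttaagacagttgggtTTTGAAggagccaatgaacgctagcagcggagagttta
Ube2c: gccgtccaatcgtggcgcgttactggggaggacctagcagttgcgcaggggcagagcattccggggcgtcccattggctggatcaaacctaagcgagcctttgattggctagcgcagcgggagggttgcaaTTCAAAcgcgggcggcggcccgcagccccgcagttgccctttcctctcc
Mki67: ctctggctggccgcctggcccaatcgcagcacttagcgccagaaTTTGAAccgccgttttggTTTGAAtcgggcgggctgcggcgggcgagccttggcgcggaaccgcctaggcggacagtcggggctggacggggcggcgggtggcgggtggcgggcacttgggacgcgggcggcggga

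The E2F letters searched were TTTCCCGC, TTTGGCGC, TTTCGCGC and TTTGCCGC, the CHR letters TTTGAA and TTCGAA, and the CCAAT box CCAAT, each on both strands. E2F forms can overlap, as in Mcm5, where a forward TTTCGCGC runs into a reversed TTTGGCGC, and in Mcm6. The capitals in Cdc6 and Ube2c are the reversed forms. E2F letters stood in 7 of 14 replication genes (Mcm3, Mcm5, Mcm6, Mcm7, Cdc6, Cdt1 and E2f2) and in 1 of 18 mitotic genes (Cdk1), against 2.60% of 27025 genes with a window. CHR letters stood in 3 of 14 replication genes (Mcm2, Mcm7 and E2f2) and in 15 of 18 mitotic genes, against 21.7% of all genes. The mitotic genes without them were Ccnb1, Birc5 and Cenpe. The E2F and the CHR letters of E2f2 lie in different windows of the gene, whereas those of Mcm7 lie in the same window. In 14 of the 15 mitotic genes with CHR letters a match began within 50 bases of the start, which held for 6.12% of all genes. The exception was Mki67. CCAAT stood in 9 of 14 replication and 17 of 18 mitotic genes, against 41.1% of all genes. The longer lists of 58 other replication genes and 66 other mitotic genes gave 15 of 49 and 6 of 58 genes with E2F letters, and 10 of 49 and 42 of 58 with CHR letters. These are matches of letters, and binding was not measured.

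**Figure D1:**
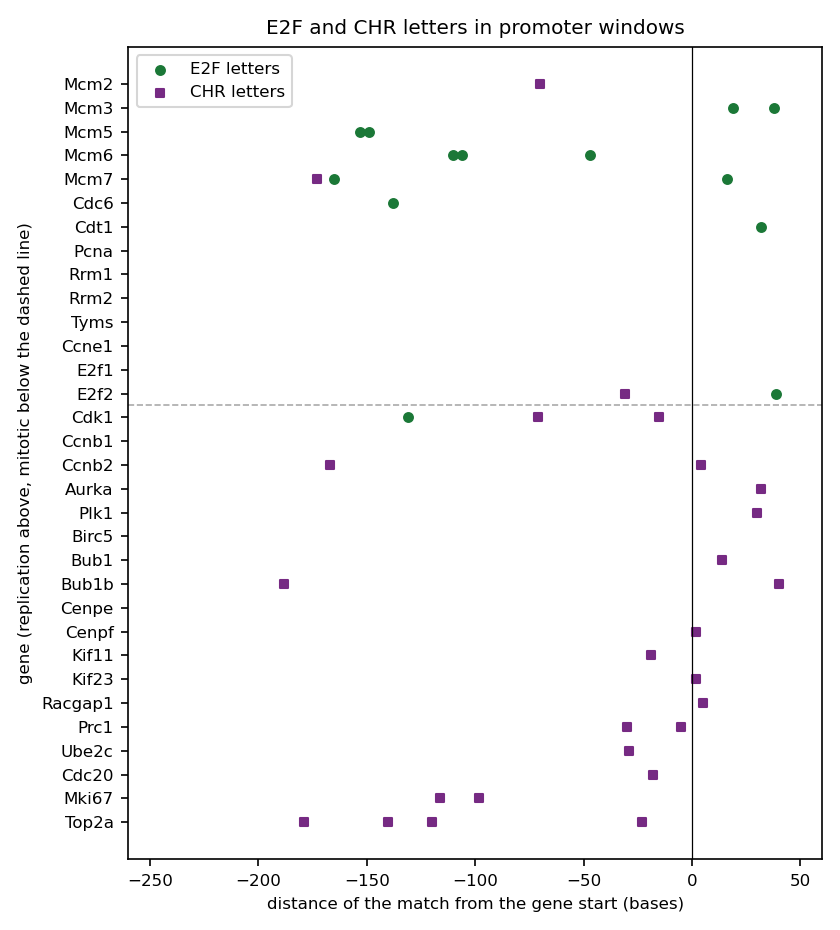
Positions of E2F letters (circles) and CHR letters (squares) in the promoter windows of the genes with a RefSeq entry, as the distance of the match from the gene start in bases, with replication genes above the dashed line and mitotic genes below. Circles lie in 7 replication genes and in Cdk1, and squares lie in 15 mitotic genes, mostly close to the start, and in the replication genes Mcm2, Mcm7 and E2f2. The 2 windows of Mcm7, E2f2 and Prc1 are drawn on the same line, each from its own start, and the circle and the square of E2f2 come from different windows.

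The libraries differed in more than their gate. Depth was estimated at about 17600000 to 19800000 fragments. The estimate rests on the median of FPKM times length in kilobases for genes of 400 to 1200 bases, among values of 0.03 to 0.08 only. This window limits what the estimate can give, so it does not show that depths were alike. The deposited FPKM of a library summed to 801072 to 1367791. All 10 of a list of erythroid markers reached 1 FPKM in every spleen library, with sums of 12415 to 12916 FPKM in CD45- and 6723 to 7372 FPKM in CD45+ libraries. In tumor libraries 2 to 4 of the 10 did, the sum was 58.9 to 245 FPKM, mostly Alas2 and Tfrc, and Klf1 and Gata1, which define the lineage, were at 0.45 FPKM or less. Macrophage markers summed to 25495 to 46962 FPKM in tumor libraries and to 1391 to 4300 FPKM in spleen CD45+ libraries, and all 10 reached 1 FPKM in each. Neutrophil markers summed to 23165, 32304 and 77508 FPKM in spleen CD45+ libraries, highest in replicate 3, against 393 to 527 FPKM in CD45- libraries. All 7 markers of stroma and endothelium reached 1 FPKM in tumor libraries, with sums of 126 to 194 FPKM, mostly Col1a1, Col1a2 and Col3a1. At most 1 did in any spleen library, and the sums were 3.42 to 37.4 FPKM in spleen CD45+ libraries. Pecam1 alone of these markers was higher there than in tumor libraries, at 36.5, 3.21 and 18.5 FPKM against 1.27 to 2.35 FPKM. Of the 7 carcinoma markers Krt8 (208 to 239 FPKM), Krt18 (95.4 to 164 FPKM) and Cdh1 (1.56 to 2.66 FPKM) passed 1 FPKM in every tumor library. There Epcam, Krt5 and Krt6a were at 0.04 FPKM or less and Krt14 at 0.13 FPKM or less. Spleen CD45+ replicate 2 stood apart from replicates 1 and 3, with 29.4% of its FPKM in globins against 42.3% and 52.2%. Its B cell markers summed to 138 FPKM against 1237 and 1131 FPKM, and its macrophage markers to 1391 FPKM against 4300 and 3867 FPKM. Lyz2 made up most of these macrophage sums, at 1276 FPKM in replicate 2 against 2514 and 3302 FPKM. The median macrophage marker was at 10.5 FPKM against 165 and 68.5 FPKM, so replicates 1 and 3 also differed from each other. Among tumor libraries, replicate 1 differed from the rest, with 10.4% against 1.80% to 1.87% globins and neutrophil markers at 1754 FPKM against 49.0 to 57.1 FPKM. The part of cell composition in the results below was not tested, and fewer cells of a type cannot be told apart from less RNA per cell in such libraries.

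The replication genes were high in spleen CD45- libraries, varied widely among spleen CD45+ libraries and were low in tumor libraries. Their median was 173, 165 and 157 FPKM in the CD45- libraries, 74.2, 235 and 73.0 FPKM in the CD45+ libraries and 28.2, 32.2, 32.0 and 30.7 FPKM in the tumor libraries. The mitotic genes ran in the same order, with medians of 124, 131 and 121 FPKM, then 52.7, 142 and 59.4 FPKM, and then 22.4, 26.2, 26.6 and 26.9 FPKM. CD45+ replicate 2 lay above every CD45- library by either median, and CD45+ replicates 1 and 3 lay between the CD45- and the tumor libraries.

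**Figure D2:**
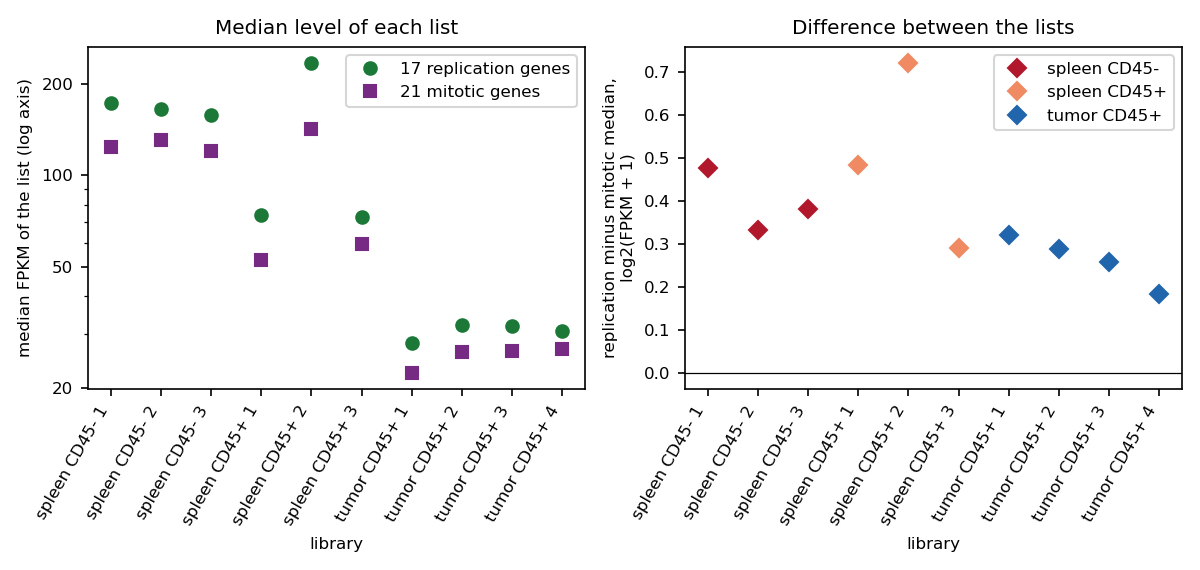
Left, the median FPKM of the 17 replication genes (circles) and the 21 mitotic genes (squares) in each of the 10 libraries, on a log axis. Right, the median log2(FPKM + 1) of the replication genes minus that of the mitotic genes per library, which was above 0 in all 10 and reached 0.72 in spleen CD45+ replicate 2.

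Among the helicase genes, Mcm2 was at 283, 250 and 247 FPKM in spleen CD45-, 102, 331 and 92.7 FPKM in spleen CD45+ and 28.2, 32.2, 32.0 and 30.7 FPKM in tumor libraries. Mcm4, another subunit of the same ring, was at 68.4, 81.0 and 82.0 FPKM, then 50.5, 193 and 43.8 FPKM, and then 18.1, 23.9, 23.9 and 23.8 FPKM. For both, the tumor libraries lay below all spleen libraries and CD45+ replicate 2 lay above the CD45- libraries. The 6 Mcm genes together covered 68.4 to 386 FPKM in CD45-, 43.8 to 517 FPKM in CD45+ and 18.1 to 86.8 FPKM in tumor libraries. Gins2, a subunit of the GINS complex that activates the ring, was at 54.4, 49.2 and 49.8 FPKM, then 19.3, 68.7 and 24.7 FPKM, and then 47.5, 37.5, 40.4 and 41.5 FPKM. Its tumor libraries lay above CD45+ replicates 1 and 3 and below CD45+ replicate 2, so that the 2 CD45+ groups overlapped, and it moved from rank 17 of 17 among the replication genes in CD45- cells to rank 6 in tumor cells.

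Pcna, the sliding clamp, held the highest level of any replication gene in each group, at 1406, 1362 and 1399 FPKM in CD45-, 602, 1652 and 681 FPKM in CD45+ and 395, 377, 375 and 361 FPKM in tumor libraries. The nucleotide genes Rrm1 and Rrm2, the subunits of ribonucleotide reductase, and Tyms, thymidylate synthase, covered 71.3 to 535 FPKM in CD45-, 30.7 to 651 FPKM in CD45+ and 12.4 to 36.2 FPKM in tumor libraries. For Pcna and for each of these 3 genes no tumor library reached a spleen library. The licensing factors differed from each other, since Cdc6 was at 3.91 to 4.68 FPKM in tumor libraries against 28.5 to 120 FPKM in CD45+, and Cdt1 at 25.2 to 27.7 FPKM against 35.9 to 140 FPKM.

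The cyclins and E2F factors of S phase entry differed among themselves. Ccne1, a cyclin E, was at 173, 165 and 157 FPKM in CD45-, 66.0, 233 and 60.4 FPKM in CD45+ and 8.95, 9.03, 10.1 and 8.86 FPKM in tumor libraries. Ccne2, the other cyclin E, was at 72.1, 90.4 and 116 FPKM, then 45.1, 107 and 59.5 FPKM, and then 8.60, 9.07, 9.12 and 8.63 FPKM. Both cyclins were thus at 8.60 to 10.1 FPKM in tumor CD45+ cells, without overlap with the spleen. E2f1, an activating E2F factor, was at 57.9, 49.0 and 57.3 FPKM, then 17.7, 48.5 and 18.6 FPKM, and then 18.1, 21.6, 19.9 and 19.9 FPKM, so that tumor libraries were level with CD45+ replicates 1 and 3. E2f2 (chromosome 4, 136172274 to 136196057, GRCm38.p6) was at 460, 420 and 456 FPKM in CD45-, 185, 235 and 188 FPKM in CD45+ and 7.58, 7.20, 6.48 and 6.24 FPKM in tumor libraries. The 3 groups of E2f2 values were apart from each other, and the gene went from rank 3 of the 17 in CD45- to rank 5 in CD45+ and rank 16 in tumor cells.

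Among the genes that start mitosis, Cdk1, its central kinase, was at 124, 133 and 117 FPKM in CD45-, 32.3, 109 and 55.1 FPKM in CD45+ and 32.4, 26.4, 26.6 and 26.9 FPKM in tumor libraries. Ccnb1, a cyclin B that activates it, was at 145, 194 and 184 FPKM, then 82.4, 252 and 127 FPKM, and then 39.5, 30.1, 31.4 and 32.7 FPKM. The tumor libraries of Ccnb1 lay below all others, while those of Cdk1 overlapped the CD45+ group, since tumor replicate 1 was level with CD45+ replicate 1. Aurka, a kinase of the spindle poles, was at 133, 128 and 121 FPKM, then 54.9, 143 and 59.4 FPKM, and then 15.1, 15.8, 16.6 and 15.1 FPKM. Ccnb2, Ccna2 (cyclins), Aurkb, Plk1 (mitotic kinases) and Birc5 (survivin, of the chromosomal passenger complex) covered 95.4 to 517 FPKM in CD45-, 37.7 to 444 FPKM in CD45+ and 18.5 to 75.0 FPKM in tumor libraries. Ube2c, the ubiquitin-conjugating enzyme of the anaphase-promoting complex, was at 916, 1044 and 823 FPKM, then 402, 682 and 553 FPKM, and then 86.4, 79.8, 79.0 and 78.0 FPKM. It held rank 1 of the 21 mitotic genes in every group, and its 3 groups did not overlap.

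At the kinetochore and spindle, Bub1, a checkpoint kinase, was at 20.4, 33.1 and 28.8 FPKM in CD45-, 19.0, 49.9 and 25.7 FPKM in CD45+ and 9.99, 12.8, 13.0 and 13.1 FPKM in tumor libraries. Cenpe, a kinetochore motor, was at 15.1, 34.9 and 17.7 FPKM, then 19.2, 38.9 and 23.5 FPKM, and then 3.70, 6.06, 6.47 and 7.74 FPKM. In both genes the spleen groups overlapped and the tumor group lay below them. Racgap1, part of the centralspindlin complex of cell cleavage, was at 92.2, 93.9 and 94.2 FPKM, then 47.5, 93.6 and 52.0 FPKM, and then 36.3, 38.1, 38.3 and 37.2 FPKM. Mki67, the proliferation marker Ki-67 that coats mitotic chromosomes (chromosome 7, 135689784 to 135716450), was at 232, 555 and 356 FPKM, then 309, 563 and 318 FPKM, and then 18.8, 26.2, 26.9 and 32.2 FPKM. Top2a, the topoisomerase that untangles sister chromatids, was at 126, 251 and 178 FPKM, then 110, 376 and 139 FPKM, and then 41.1, 55.0, 57.0 and 60.6 FPKM. The tumor libraries of these 3 genes lay below every spleen library, and the spleen groups of Mki67 and Top2a overlapped. Mki67 held rank 3 of the 21 in CD45- cells, rank 2 in CD45+ cells and rank 11 in tumor cells.

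**Figure D3:**
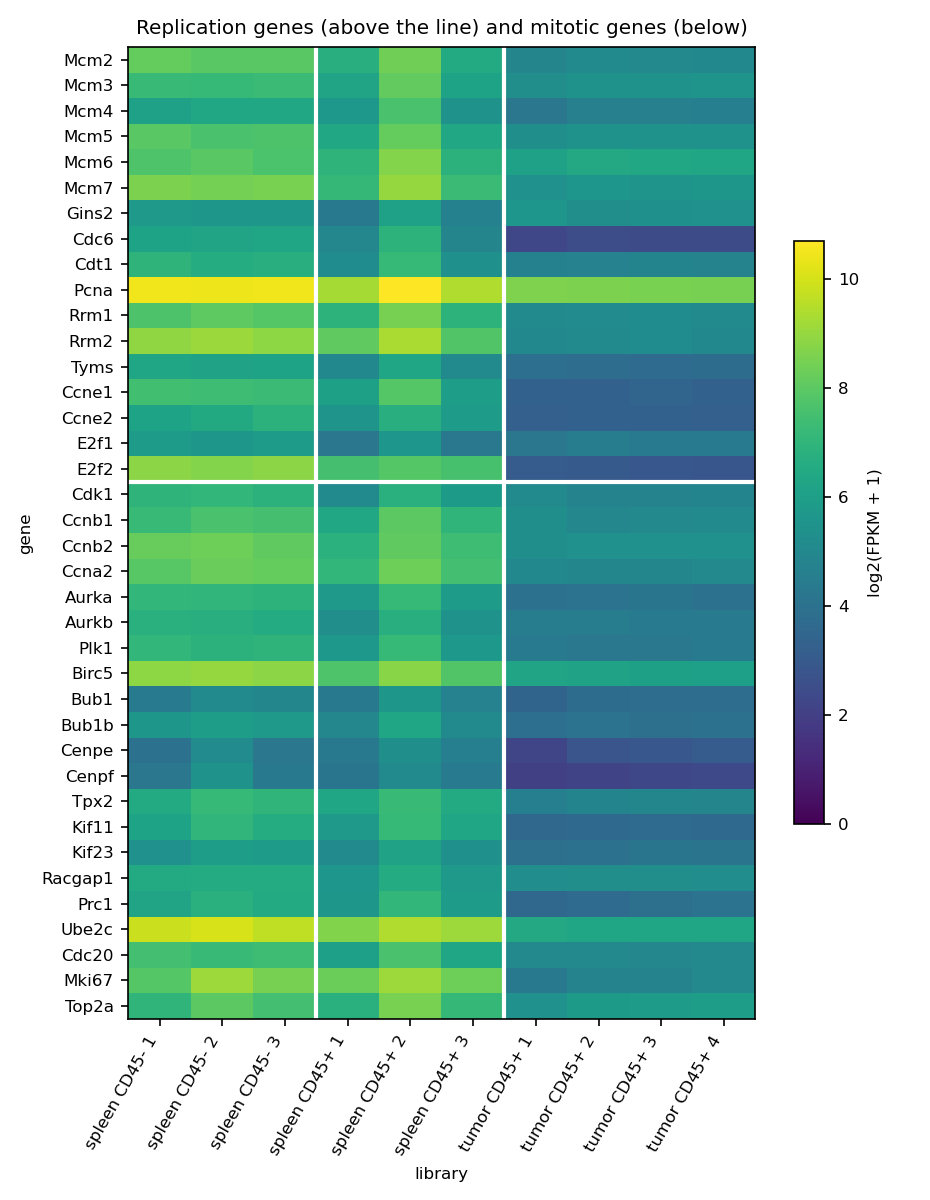
Heat map of log2(FPKM + 1) for the 38 genes (rows, replication above the horizontal white line, mitotic below) in the 10 libraries (columns, white lines between groups). Tumor columns are dark for E2f2, Ccne1, Cdc6 and Cenpf, and the column of spleen CD45+ replicate 2 is as bright as the CD45- columns or brighter for most genes.

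The first comparison set spleen CD45+ against spleen CD45- cells, the same organ across the gate. E2f2 and E2f1 of the replication genes and Ube2c of the mitotic genes were lower in CD45+ cells, and none of the 38 was higher. That is 2 of 17 and 1 of 21 lower, where 5.02% of the 9728 genes tested were called lower and 50.5% higher. The changes, on the log2(FPKM + 1) scale with standard errors, were -1.14 ± 0.18 for E2f2 (adjusted p = 0.00219), -1.08 ± 0.38 for E2f1 (adjusted p = 0.0425) and -0.79 ± 0.24 for Ube2c (adjusted p = 0.0240). Cdk1 (-1.09 ± 0.40, adjusted p = 0.0516) and Birc5 (-0.79 ± 0.30, adjusted p = 0.0547) had no overlap between the groups and missed the threshold. In all, 5 of the 38 lay lower without overlap and none higher, against 7.24% lower and 59.0% higher of all genes tested. At the other end, Mcm4 changed by -0.03 ± 0.52 and Top2a by 0.01 ± 0.47, Cenpe by 0.29 ± 0.38, Bub1 by 0.11 ± 0.37 and Mki67 by 0.09 ± 0.37. The median change was -0.66 for the replication genes and -0.34 for the mitotic genes, beside 0.67 for all genes tested, and 17 of 17 and 17 of 21 values were below 0.

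Leaving out spleen CD45+ replicate 2 changed most of these results. Without it, all 17 replication genes and 16 of the 21 mitotic genes were lower in CD45+ cells, with medians of -1.20 and -0.76, while 1419 of 8105 genes tested were called lower. The genes still not called were Mki67 (-0.19), Top2a (-0.52), Bub1 (-0.27), Cenpe (0.01) and Cenpf (-0.39). E2f2 stayed called without any 1 library. The call of E2f1 was lost without CD45- replicate 1, 2 or 3 or CD45+ replicate 1 or 3 (adjusted p = 0.0838 to 0.134), and that of Ube2c without CD45- replicate 1 or 2 or CD45+ replicate 1 or 3. In CD45+ replicate 2 every one of the 38 genes lay above the mean of replicates 1 and 3. The ratio had a median of 3.40 for the replication genes, from 1.26 for E2f2 to 4.13 for Cdc6, and of 2.15 for the mitotic genes, from 1.43 for Ube2c to 3.01 for Top2a. Its 10 erythroid markers summed to 6954 FPKM, between 6723 and 7372 FPKM in the other 2 libraries. Of these markers 6 lay above both other libraries, such as Klf1 at 613 FPKM against 271 and 329 FPKM, and 3 lay below both, Alas2 at 1108 FPKM against 1586 and 2217 FPKM, Slc4a1 at 1966 FPKM against 2367 and 2161 FPKM and Epb42 at 160 FPKM against 176 and 182 FPKM.

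The second comparison set tumor CD45+ against spleen CD45+ cells, the same gate in another tissue. Of the replication genes 14 of 17 were lower in tumor cells and none higher, and all 21 mitotic genes were lower. Of the 11463 genes tested, 26.0% were called lower and 37.7% higher. E2f2 fell by 4.69 ± 0.15 on the log2 scale (adjusted p = 3.53e-07), Rrm2 fell by 3.34 ± 0.34 (adjusted p = 1.01e-04), Ccne1 fell by 3.27 ± 0.44 (adjusted p = 4.06e-04) and Cdc6 fell by 3.15 ± 0.47 (adjusted p = 7.08e-04). Of the mitotic genes Mki67 fell by 3.85 ± 0.27 (adjusted p = 1.25e-05), Kif11, a motor that separates the spindle poles, fell by 2.74 ± 0.30 and Ube2c fell by 2.71 ± 0.19. The smallest fall was that of Racgap1, which fell by 0.70 ± 0.24 (adjusted p = 0.0319). The 3 replication genes not called were Cdt1 (-1.13 ± 0.44, adjusted p = 0.0511), E2f1 (-0.34 ± 0.33, adjusted p = 0.406) and Gins2 (0.36 ± 0.39, adjusted p = 0.442). The 2 groups did not overlap for 35 of the 38 genes, all lower in tumor cells, against 28.1% of all genes tested lower and 38.4% higher without overlap, and Gins2, E2f1 and Cdk1 were the others. The median change was -1.72 for replication and -1.99 for mitotic genes, beside 0.20 for all genes tested.

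By role, 6 of 7 helicase genes, 1 of 2 licensing genes, all 4 genes of the clamp and nucleotides and 3 of 4 cyclin E and E2F genes were lower in tumor than in spleen CD45+ cells. Among mitotic genes the spread ran from -0.70 for Racgap1 to -2.74 for Kif11 within the 5 spindle and midzone genes, and from -1.19 for Bub1 to -2.34 for Cenpf, a large kinetochore protein, within the 4 checkpoint and kinetochore genes. The calls of Mcm3, Mcm6, Cdk1 and Racgap1 were lost when any 1 tumor library was left out (adjusted p = 0.0505 to 0.0917), and that of Cdk1 also without CD45+ replicate 3 (adjusted p = 0.0801). Without CD45+ replicate 2 the medians were -1.23 and -1.60, and 8 of the called falls were smaller by more than 1.5-fold as ratios of expression, at log2 -1.63 for Mcm2, -0.76 for Mcm3, -1.05 for Mcm4, -0.95 for Mcm5, -0.60 for Mcm6, -1.65 for Mcm7, -2.48 for Cdc6 and -2.65 for Ccne1. In the same setting Gins2 was called higher in tumor cells (0.90, adjusted p = 7.92e-04), E2f1 turned to 0.12 and Cdt1 was called lower although its value moved to -0.51. Cdt1 was also called without CD45+ replicate 1 (-1.48) or 3 (-1.40).

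**Figure D4:**
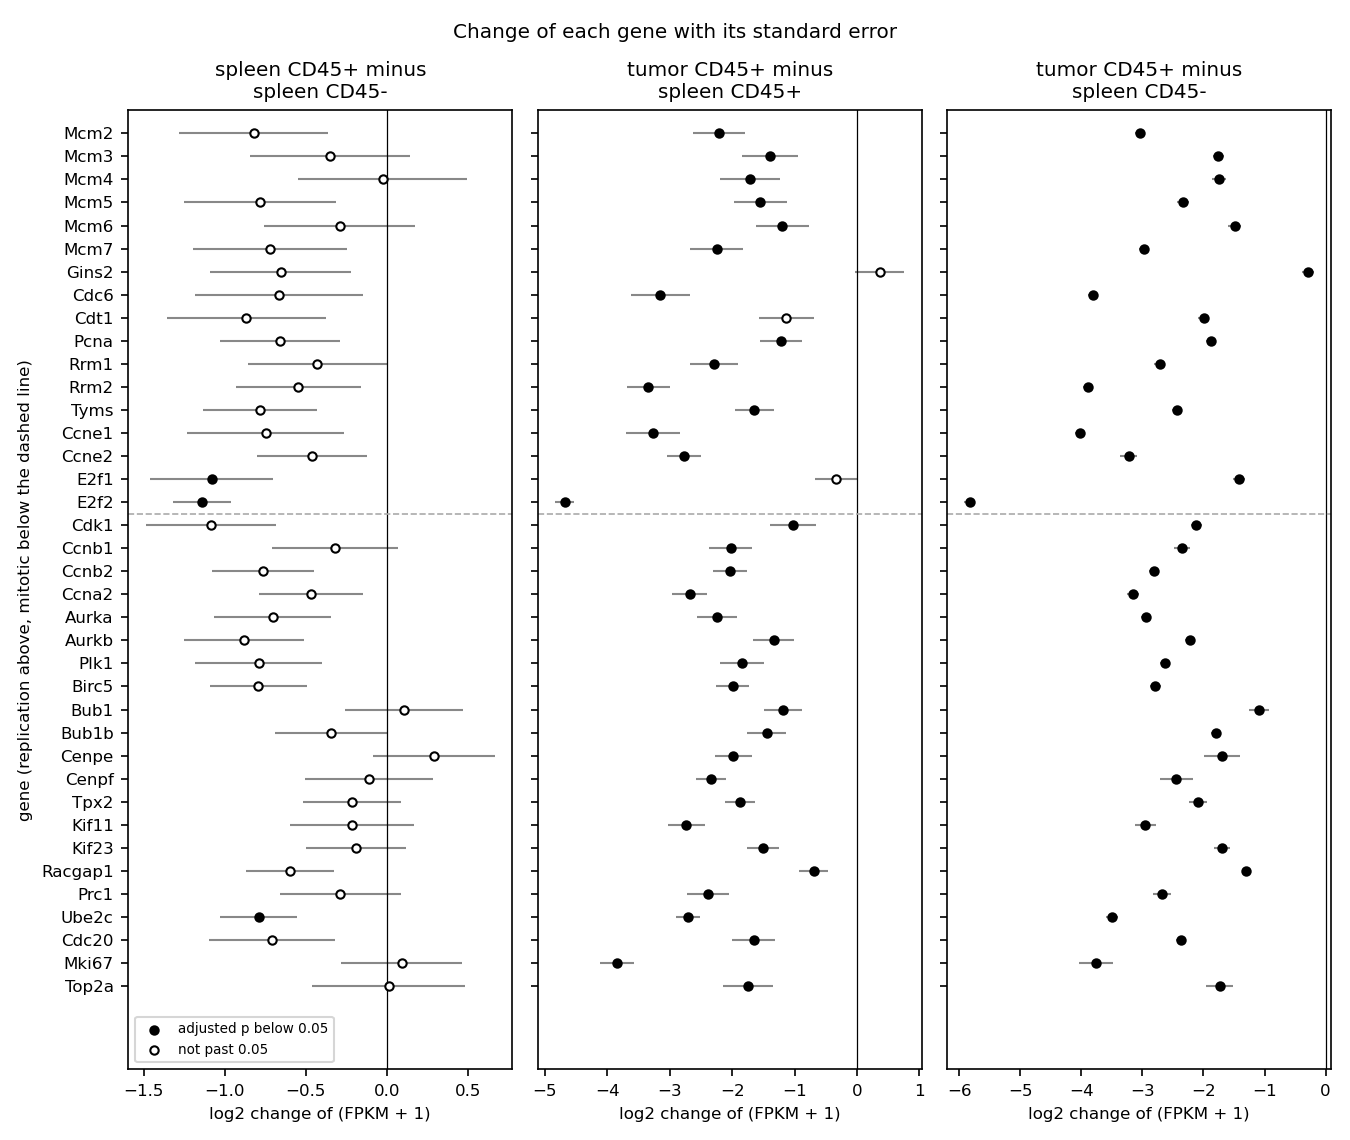
Change of each of the 38 genes in the 3 comparisons on the log2(FPKM + 1) scale, with bars of 1 standard error, filled where the adjusted p was below 0.05, and with a separate scale in each panel. In the left panel 3 points are filled, in the middle panel 35, and in the right panel all 38 points are filled and below 0, from -5.83 for E2f2 to -0.29 for Gins2.

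The third comparison set tumor CD45+ against spleen CD45- cells, in which tissue and gate differ together and cannot be told apart. It shares its libraries with the other comparisons and is not independent of them. All 17 replication and all 21 mitotic genes were lower in tumor cells, where 22.5% of the 11208 genes tested were called lower and 67.5% higher. No tumor library reached a CD45- library for any of the 38, against 22.2% lower and 66.5% higher without overlap of all genes tested. The median change was -2.43 for replication and -2.37 for mitotic genes, beside 1.06 for all genes tested. E2f2 fell by 5.83 ± 0.09 (adjusted p = 6.73e-11), Ccne1 fell by 4.02 ± 0.08 and Rrm2 fell by 3.89 ± 0.09. Mki67 fell by 3.76 ± 0.28 (adjusted p = 1.24e-06) and Ube2c fell by 3.50 ± 0.10. Aurka fell by 2.94 ± 0.07 and had the smallest adjusted p of the mitotic genes (8.39e-10). The smallest changes were those of Gins2 (-0.29 ± 0.09, adjusted p = 0.0161) and, among mitotic genes, Bub1 (-1.08 ± 0.16, adjusted p = 1.86e-04). As a share of the CD45- mean, tumor cells held 1.54% of the E2f2 level, 6.83% of Mki67, 44.6% of Bub1 and 81.5% of Gins2, with medians of 17.5% over replication and 18.9% over mitotic genes. Without CD45- replicate 1 the call of Gins2 was lost (-0.25, adjusted p = 0.05004), and no other call of the 38 was lost with any 1 library left out.

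The 38 genes together summed to 8112 to 8967 FPKM in CD45- libraries, to 3947, 10117 and 4457 FPKM in CD45+ libraries and to 1408 to 1445 FPKM in tumor libraries. Set against the summed erythroid markers, that was 0.653 to 0.694 FPKM per marker FPKM in CD45-, 0.587, 1.45 and 0.605 in CD45+ and 5.76 to 24.2 in tumor libraries. This ratio was higher in every tumor library than in any spleen library. Its denominator was 58.9 to 245 FPKM in tumor and 6723 to 12916 FPKM in spleen libraries. The order thus follows from the low markers, since the sum of the 38 genes was itself lower in tumor libraries. Which cells carried the transcripts was not tested.

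The size of these changes moved with the scaling of the libraries. Hemoglobin transcripts took 62.5% to 63.5% of the FPKM in CD45- libraries, and their part in it was not tested beyond leaving those genes out. With trimmed-mean factors the median change of all genes moved from 0.67 to 0.01 in the first comparison, where 1741 genes were then lower and 2769 higher, and 11 of 17 replication and 11 of 21 mitotic genes were lower. Median-ratio factors gave 2911 lower and 2269 higher with a median of -0.19, values without the globin genes 880 and 3870 with 0.43, and a common sum 121 and 5752 with 1.02. In the second comparison values without the globin genes gave 4308 lower and 2946 higher genes with a median of -0.21, and a common sum 1967 and 4716 with 0.44. With that common sum 29 of the 38 genes were lower, where the calls of Mcm3, Mcm6, Pcna, Cdk1, Bub1 and Racgap1 were lost (adjusted p = 0.0503 for Bub1 to 0.257 for Racgap1), while 36 were lower without the globin genes. In the third, trimmed-mean factors gave 4644 lower and 5238 higher genes with a median of 0.14, median-ratio factors 4741 and 5140 with 0.09, and values without globins 3837 and 5919 with 0.47. All 38 genes stayed lower in that comparison under these 3 scalings. With a common sum 36 of 38 did, the call of Bub1 was lost (-0.47, adjusted p = 0.0610), and Gins2 turned to 0.34 and was called higher (adjusted p = 0.00450). In the second comparison Gins2 turned to -0.093 in values without the globin genes.

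Replication and mitotic genes were then set against each other in each library. The median log2(FPKM + 1) of the replication genes exceeded that of the mitotic genes by 0.48, 0.33 and 0.38 in CD45-, by 0.48, 0.72 and 0.29 in CD45+ and by 0.32, 0.29, 0.26 and 0.18 in tumor libraries. The highest value was that of CD45+ replicate 2 and the lowest that of tumor replicate 4. The CD45- and tumor ranges of 0.33 to 0.48 and 0.18 to 0.32 lay next to each other with a gap of less than the range within either, and the CD45+ range covered the CD45- range. By summed FPKM, replication over mitotic genes stood at 1.27, 0.981 and 1.19 in CD45-, 1.02, 1.30 and 0.842 in CD45+ and 1.43, 1.45, 1.43 and 1.36 in tumor libraries, so the order of the groups was not that of the medians. A score over chosen genes was given no test.

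The longest transcripts belonged to mitotic genes. Mki67, Top2a, Cenpe and Cenpf have a longest known transcript of 5221 to 11130 bases, the only 4 of the 38 over 5000 bases. In CD45- replicate 1 these 4 stood at 0.509 to 0.589 of the mean of CD45- replicates 2 and 3, with a median of 0.576. For the 465 genes of that length with a mean of at least 10 FPKM the median ratio was 0.806, and for the 449 genes under 1000 bases it was 1.07. The shorter mitotic genes went from 0.632 (Kif11) to 1.14 (Cdc20), and the replication genes from 0.698 (Ccne2) to 1.21 (Mcm5). So the lowest CD45- library for all 4 long genes was replicate 1, and the part of RNA length or quality in their values was not tested. Replicate 2 was the highest for all 4, at 1.65 to 2.31 of the mean of replicates 1 and 3, with a median of 2.01 against 1.12 for the 465 long genes. For Cenpe, given above, and Cenpf, at 17.9, 42.7 and 19.1 FPKM, replicate 3 was close to replicate 1 and replicate 2 lay far above both. In tumor CD45+ cells replicate 1 was also the lowest library for the same 4 genes. There this was not particular to long transcripts, since it held for shorter genes such as Mcm2 to Mcm7, Tpx2 and Prc1. Replicate 1 was the highest tumor library for others, such as Cdk1 and Ccnb1, and no tumor ratio was taken for all long genes.

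**Figure D5:**
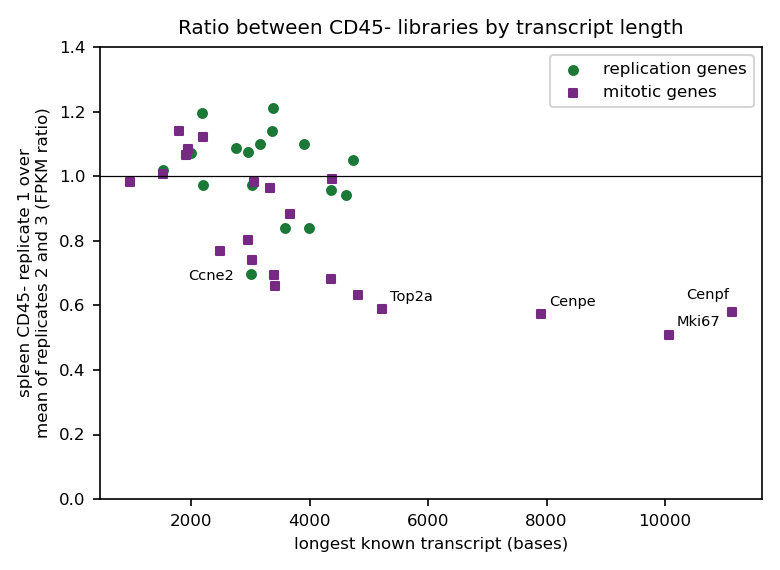
FPKM of spleen CD45- replicate 1 divided by the mean of CD45- replicates 2 and 3, against the longest known transcript of the gene in bases, for replication genes (circles) and mitotic genes (squares). The 4 genes over 5000 bases lie at 0.509 to 0.589, and the replication genes lie between 0.698 and 1.21.

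The other genes of the same processes were read from longer lists. Of 58 other replication genes, 38 were lower and none higher in tumor than in spleen CD45+ cells, with a median of -1.30, beside 26.0% lower and 37.7% higher of all genes tested. Orc1, a subunit of the origin recognition complex, fell by 2.97 ± 0.39 (adjusted p = 3.56e-04) and Cdc7, the kinase that fires origins, fell by 1.85 ± 0.25 (adjusted p = 4.27e-04). Of 65 other mitotic genes tested, 58 were lower and 1 was higher, with a median of -1.71. Cdc25b, a phosphatase that activates Cdk1, fell by 3.28 ± 0.21 (adjusted p = 8.49e-06), and the gene that rose was Cep55, a protein of the midbody, from 2.59, 1.55 and 4.94 FPKM to 12.6, 13.4, 13.0 and 13.7 FPKM (1.90 ± 0.27, adjusted p = 5.38e-04). Between spleen CD45+ and CD45- cells, 2 of 58 other replication genes were lower and 4 higher, and 12 of 66 other mitotic genes lower and 1 higher, beside 5.02% lower and 50.5% higher of all genes tested. Against CD45- cells the tumor libraries had 51 of 58 lower and 5 higher, and 65 of 66 lower and 1 higher, beside 22.5% and 67.5% of all genes. Rrm2b, among the 5, and Cep55, the 1, were below 1 FPKM in every CD45- library. In both comparisons with CD45- cells these genes could be called only as higher. Samhd1, which breaks down deoxynucleotides, was among the 5 that rose, from 15.9, 16.6 and 18.2 FPKM in CD45- to 57.1, 93.4, 91.6 and 97.3 FPKM in tumor libraries (2.23 ± 0.18, adjusted p = 1.98e-06). It was at 119, 41.1 and 76.1 FPKM in spleen CD45+ libraries, where it was also called higher than in CD45- cells (2.03 ± 0.36, adjusted p = 0.00331).

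Genes of G1 and of cell cycle exit were called in both directions, as were all genes tested. Of 30 tested between tumor and spleen CD45+ cells, 17 were lower and 8 higher, beside 26.0% and 37.7% of all genes. Against CD45- cells 16 were lower and 13 higher, beside 22.5% and 67.5%. Between spleen CD45+ and CD45- cells 3 of 27 were lower and 6 higher, beside 5.02% and 50.5%. Ccnd1, cyclin D1 of early G1, was at 0.35, 0.28 and 0.21 FPKM in CD45-, 1.96, 0.40 and 1.14 FPKM in CD45+ and 104, 143, 144 and 144 FPKM in tumor libraries. Its rise over CD45+ cells was 6.01 ± 0.27 (adjusted p = 1.28e-06). Cdkn1a, the inhibitor p21, was at 14.6, 12.5 and 12.1 FPKM, then 20.9, 19.2 and 12.1 FPKM, and then 100, 158, 162 and 163 FPKM, a rise of 3.00 ± 0.25 over CD45+ cells (adjusted p = 3.56e-05). Both genes were higher in every tumor library than in any spleen library, and the sum of the 38 genes was lowest in those same tumor libraries. Tfdp2, a partner of E2F factors, ran the other way, at 94.4, 140 and 118 FPKM, then 68.0, 62.9 and 80.3 FPKM, and then 2.22, 1.82, 1.76 and 1.70 FPKM, and it fell by 4.63 ± 0.15 from CD45+ cells (adjusted p = 3.64e-07). E2f8, a repressing E2F factor, fell by 3.00 ± 0.35 (adjusted p = 1.89e-04), E2f5 was at 12.9 to 13.9 FPKM in tumor against 0.66 to 5.04 FPKM in spleen libraries, and Cdkn2d, a G1 inhibitor, fell by 1.15 ± 0.20 from CD45- to CD45+ cells (adjusted p = 0.00288) and fell by 1.68 ± 0.19 from there to tumor cells (adjusted p = 1.62e-04). Genes below 1 FPKM throughout a group, such as Ccnd1 and E2f5 in CD45- cells, could be called in 1 direction only. Of the G1 and exit genes tested, these were 6 of 30 between tumor and CD45- cells. They were 2 of 30 between tumor and spleen CD45+ cells and 3 of 27 between the spleen groups.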

How the data were processed

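Messenger RNA was sequenced in 10 libraries of sorted cells, in 3 groups given by the labels. Per the labels' protocols a company extracted RNA with TRIZOL and built the libraries, and per the submitters' processing notes the build was GRCm38.p6. The authors had turned reads into 1 value per RefSeq model and library before the files were deposited, and these values were read as FPKM from their own steps, since no header names the unit. For the aligner, the estimation program and the use of strand, nothing is given in the sources read here. RefSeq accessions of 60167 of 61685 models were matched to symbols and the models of a gene summed, which gave 17603 genes, and the unmatched models held 0.423% to 1.06% of the FPKM.

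Each comparison was fitted with limma 3.58.1 (R 4.3.3) to log2(FPKM + 1), with the prior variance following the mean level. Only libraries of the groups compared were used, and a gene needed 1 FPKM in 3 or more of them. Adjusted p-values are Benjamini-Hochberg over all genes tested, with a threshold of 0.05. All 38 genes passed the filter in each comparison, and none was below it throughout a group. The scale understates changes of genes with low values. The labels do not tie replicates to separate mice, and p-values therefore describe only the spread of these libraries, part of which may be technical. Tumor replicates 2, 3 and 4 differed little from each other, and were kept as separate samples. The median chi-square per gene was 0.712 for 2 and 3, 1.72 for 2 and 4 and 1.61 for 3 and 4, where counting noise alone gives 0.455. Against tumor replicate 1 it was 8.66 to 10.2, and the closest spleen pair, CD45- replicates 2 and 3, gave 2.30. This closeness enters the standard errors of the tumor group. The chi-square uses the depth estimate given above, so its distance from counting noise is approximate.

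The 38 genes, the other lists, the markers and the tests were chosen with earlier results of these data known. Values in every library were given for the genes with the largest and smallest change and the smallest adjusted p in each list and comparison, and for Mcm2, Pcna, E2f1, E2f2, Mki67, Top2a, Ccnb1, Ccne1 and Ccne2. Of the other lists up to 4 genes per direction by smallest adjusted p could be named. Likeness of other genes to these over the libraries, also planned, was left out because the libraries fall into separate clusters. Alternatives were a pseudocount of 0.1, no filter, weighted trimmed-mean (TMM) and median-ratio factors computed on the FPKM, a common sum, values without globin genes, 1 fit over all libraries, a replicate block, the highest model per gene and leaving out each library. The fits were tested on simulated data, drawn independently for each gene and library. Those data held no outlying library, no differing globin share and no close replicates, so the test does not cover these features. Plots used matplotlib 3.10.9, and other steps pandas 2.3.3 and numpy 2.4.6 in Python 3.11.15.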

Additional observations from a re-analysis of the deposited data

Results flagged for a closer look

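In the 4 tumor libraries, 6 of 39 values tested had 1 library far from the other 3, by the gap to its nearest neighbour divided by the range of the group (Dixon's test at the 95% level). Chance marks about 1 in 20 such groups, and all of them share the same 4 libraries. Tumor replicate 1 was the lowest for Mcm3 (38.1 FPKM against 44.4 to 44.8, gap ratio 0.952), Mcm4 (18.1 FPKM against 23.8 to 23.9, 0.979), Ccnb2 (39.4 FPKM against 41.8 to 42.0, 0.907) and Bub1 (9.99 FPKM against 12.8 to 13.1, 0.923). It was the highest for Cdk1 (32.4 FPKM against 26.4 to 26.9, 0.913). Tumor replicate 3 was the highest for Ccne1 (10.1 FPKM against 8.86 to 9.03, 0.863). Replicate 1 is also the tumor library with 10.4% of its FPKM in globins, and a part of that difference in these values was not tested. Groups of 3 libraries were not examined in this way.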

How the results depend on the processing

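In spleen CD45+ against CD45- cells the 2 replication and 1 mitotic genes called lower became 1 and 1 with no filter, 2 and 2 with a pseudocount of 0.1, 11 and 11 with trimmed-mean factors, 14 and 16 with median-ratio factors, 1 and 0 with a common sum, 3 and 8 without globin genes and 3 and 6 in 1 fit over all libraries, the replication gene gained in the last 2 settings being Tyms, and ran from 1 to 17 and from 0 to 16 with 1 library left out. Signs there turned with a common sum for Mcm3 (0.030), Mcm4 (0.35), Mcm6 (0.091), Ccnb1 (0.060), Bub1b (0.035), Cenpf (0.26), Tpx2 (0.17), Kif11 (0.16), Kif23 (0.19) and Prc1 (0.093). They turned with trimmed-mean and median-ratio factors for Mki67 (-0.64 and -0.84), Top2a (-0.72 and -0.92), Bub1 (-0.60 and -0.80) and Cenpe (-0.41 and -0.61), and without globin genes for Mki67 (-0.17), Top2a (-0.25) and Bub1 (-0.15). With 1 library left out they ran from -0.70 to 0.36 for Mcm4, -0.88 to 0.021 for Mcm6, -0.22 to 0.41 for Mki67, -0.52 to 0.36 for Top2a, -0.75 to 0.049 for Ccnb1, -0.27 to 0.40 for Bub1, -0.39 to 0.28 for Cenpf, -0.59 to 0.11 for Kif11 and -0.49 to 0.029 for Kif23. None of these genes was called with the settings of the report. In tumor against spleen CD45+ cells 0 to 1 replication genes were called higher with 1 library left out, E2f1 ran from -0.58 to 0.12, and Gins2 was -0.093 without globin genes. There the calls of Mcm3 (adjusted p = 0.0685), Mcm6 (0.112), Pcna (0.0541), Cdk1 (0.113), Bub1 (0.0503) and Racgap1 (0.257) were lost with a common sum, and those of Mcm6 (0.0569) and Cdk1 (0.0558) with no filter. In tumor against spleen CD45- cells a common sum called 1 replication gene higher, Gins2 (0.34), and lost Bub1 (adjusted p = 0.0610), and 1 fit over all libraries lost Gins2 (adjusted p = 0.439). Correlations of deviations between groups ran from 0.241 to -0.175 for equal replicate numbers and from 0.259 to -0.323 for unequal ones. With so few libraries per group they cannot decide whether equal numbers are paired. A replicate block gave 2 replication and 3 mitotic genes lower in the first comparison. In the second it lost Cdk1 (adjusted p = 0.0742) and Racgap1 (adjusted p = 0.0913). The block used only replicate numbers present in both groups, so tumor replicate 4 was left out of it. Leaving out that library without a block also lost Cdk1 (adjusted p = 0.0786) and Racgap1 (adjusted p = 0.0703), so these losses cannot be credited to the block. With the highest model per gene in place of the sum, replication minus mitotic medians were 1.04, 0.53 and 0.57 in CD45-, 0.82, 1.08 and 0.50 in CD45+ and 0.42, 0.77, 0.75 and 0.62 in tumor libraries. The cause of these shifts was not tested. If the estimated depth holds, counting error limits the 38 genes little, since their lowest value was 3.12 FPKM. Values below 1 FPKM of other genes are coarse.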

Other observations

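Of the longer replication list, Asf1b, a histone chaperone, was at 325, 315 and 282 FPKM in spleen CD45-, 115, 214 and 129 FPKM in spleen CD45+ and 50.9, 44.9, 42.0 and 35.4 FPKM in tumor libraries, and it fell from CD45- to CD45+ cells (log2 -1.05 ± 0.26, limma adjusted p = 0.0106) and from there to tumor cells (-1.75 ± 0.24, adjusted p = 4.54e-04). Fen1, the nuclease that trims Okazaki fragments, was at 191, 187 and 178 FPKM, then 67.9, 219 and 77.9 FPKM, and then 25.4, 25.6, 25.8 and 22.6 FPKM. Slbp, the histone mRNA stem-loop binding protein, was at 247, 307 and 321 FPKM, then 167, 495 and 186 FPKM, and then 36.0, 42.8, 44.1 and 53.4 FPKM, and fell by 2.48 ± 0.37 from spleen CD45+ to tumor cells (adjusted p = 7.18e-04).

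Rb1, the retinoblastoma protein that restrains E2F factors, was at 88.8, 128 and 123 FPKM in CD45-, 78.8, 139 and 81.9 FPKM in CD45+ and 14.7, 16.1, 16.1 and 17.4 FPKM in tumor libraries, and it fell by 2.52 ± 0.22 from CD45+ to tumor cells (adjusted p = 4.10e-05). Of the inhibitors that act through it, Cdkn2a was at 5.29 to 6.42 FPKM and Cdkn2b at 3.95 to 4.85 FPKM in tumor libraries, against at most 0.99 and 0.32 FPKM in any spleen library. Their relatives Cdkn2c and Cdkn2d went the other way, with Cdkn2c at 184, 168 and 149 FPKM in CD45-, 65.7, 126 and 71.7 FPKM in CD45+ and 51.9, 46.5, 47.5 and 41.1 FPKM in tumor libraries (-0.84 ± 0.24 from CD45+ to tumor cells, adjusted p = 0.0156), and Cdkn2d as given above. Mybl2, a transcription factor of the MuvB complex, was at 126, 111 and 114 FPKM, then 42.6, 106 and 37.5 FPKM, and then 7.43, 7.79, 7.21 and 6.81 FPKM. The CD45+ library with the highest Fen1, Asf1b, Rb1 and Mybl2 was replicate 2.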
